A study of Mus musculus with 6 samples.

Results

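Autophagy is the process by which a cell encloses part of its cytoplasm in a double membrane, the autophagosome, and delivers it to the lysosome. A kinase complex built on ULK1 or ULK2 starts it, a lipid kinase complex marks the membrane, ATG9 vesicles and lipid transfer proteins enlarge it, and a pair of ubiquitin-like conjugation systems attach small proteins of the ATG8 family (LC3 and GABARAP) to it. Cargo receptors such as p62 bind ATG8 proteins and bring in what is to be degraded. In B cells the pathway is known for its part in the survival of memory and plasma cells and in bringing TLR ligands together with their receptors in endosomes.

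The genes described here are 37 of the 23420 gene symbols in the deposited tables: every symbol that begins with Atg and a digit, and 20 further named components of the machinery. They were followed in 6 RNA-seq libraries of splenic B cells from TLR9-/- MRL/lpr mice of 5 to 7 weeks. The cells were kept for 4 h without a stimulus (3 libraries) or with CL097, an imidazoquinoline agonist of TLR7, at 5 µg/ml (3 libraries). All libraries share the TLR9 deficiency, a wild-type Tlr7 and the Fas lpr mutation of this lupus-prone strain, and per the study's methods all mice were male, so there is no TLR9-sufficient or Fas-sufficient control. The B cells were enriched by magnetic depletion of cells labelled for CD43, CD4, CD8, CD11b, CD11c or Gr-1. This takes out T cells, myeloid cells and neutrophils, and also B cells that carry CD43, CD11b or CD11c, such as plasma cells. The libraries of each condition carry the numbers 1 to 3 and were compared by number, as described under the processing.

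Values are deposited log2 CPM, and CPM here is 2 to that power. CPM is the read count scaled to a common library size, and the authors had also quantile-normalized these values. The CPM given here are therefore normalized levels and not plain scaled counts. A gene was tested when it had at least 0.5 CPM in at least 3 libraries, which kept 11844 genes and 36 of the 37 members. All 36 passed in all 6 libraries, so none was kept only through the condition in which it was higher. The exception was Atg9b, an ATG9 copy known mainly from other tissues, which stayed at or below 0.136 CPM in every library. A gene is called when its Benjamini-Hochberg adjusted p from limma, over all tested genes, is under 0.05 and its log2 fold change (CL097 minus unstimulated) exceeds 0.5 in size. No read totals came with the values, so sequencing depth is unknown. The B cell label was checked against Cd79a, Cd79b, Ms4a1, Cd22, Pax5, Blk and Fcer2a. They summed to between 5774 and 6584 CPM without and between 2348 and 2897 CPM with CL097, and 5 of these 7 were called lower. The 10 erythroid markers in the tables summed to 206, 5264 and 4184 CPM without and 214, 4673 and 7593 CPM with CL097 in numbers 1 to 3, and 5 of 8 tested were called higher after CL097, while the alpha globin genes Hba-a1 and Hba-a2 were at the floor of the table. The beta globin gene Beta-s made up most of that sum in every library, at 177, 4424 and 3203 CPM without and 163, 3406 and 5405 CPM with CL097, and was not called (log2 0.08). The summed level of 12 monocyte and macrophage markers ran from 117 to 705 CPM over the libraries, with 5 called lower, that of the neutrophil markers from 14.9 to 64.4 CPM (4 of 7 tested lower), that of the plasma cell markers from 410.4 to 1325 CPM (3 of 5 lower), that of the T cell markers from 50.8 to 94.1 CPM (2 of 5 higher) and that of the NK cell markers from 4.64 to 9.87 CPM (2 of 5 lower). Of all tested genes 25.8% were called lower and 25.9% higher. The T cell sum was mostly Lck, at 43.4 to 88.3 CPM. The 2 higher T cell markers, Cd8a and Cd8b1, passed the filter only through the CL097 libraries. Klrd1, among the NK markers called lower, passed only through the unstimulated ones. These calls are tied to the filter, and the genes were at or below 2.19 CPM in every library. The defining T cell markers Cd3e, Cd3d and Cd3g and the NK marker Ncr1 were under the filter. In these bulk samples, fewer cells of a type and less RNA per cell cannot be told apart.

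After CL097, 15 of the 36 tested autophagy genes were called lower and 2 were called higher, which is 41.7% and 5.56% of them. The share of all tested genes called lower was 25.8% and the share called higher was 25.9%. In either direction 17 members (47.2%) were called against 51.7% of all genes, a share near the background. The median log2 fold change was -0.38 over the members and 0.00 over all genes, and by number it was -0.47, -0.33 and -0.39. Of the members 26 had a log2 fold change below 0 (72.2%, against 49.9% of all genes). CL097 was lower in all 3 pairs for 23 members (63.9%, against 40.0%) and higher in all 3 for 8 (22.2%, against 39.7%). The groups did not overlap for 26 members (72.2%, against 65.8%).

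The median size of the log2 fold change was 0.54 over the members and 0.61 over all genes. Members ran from -1.13 (Uvrag) to 1.60 (Optn), and only 5 were called with a log2 fold change of at least 1 in size (13.9%, against 28.5% of all genes). A further 9 members had an adjusted p under 0.05 but fell short of the fold threshold (25%, against 14.9%). The median standard error was 0.10.

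**Figure D1:**
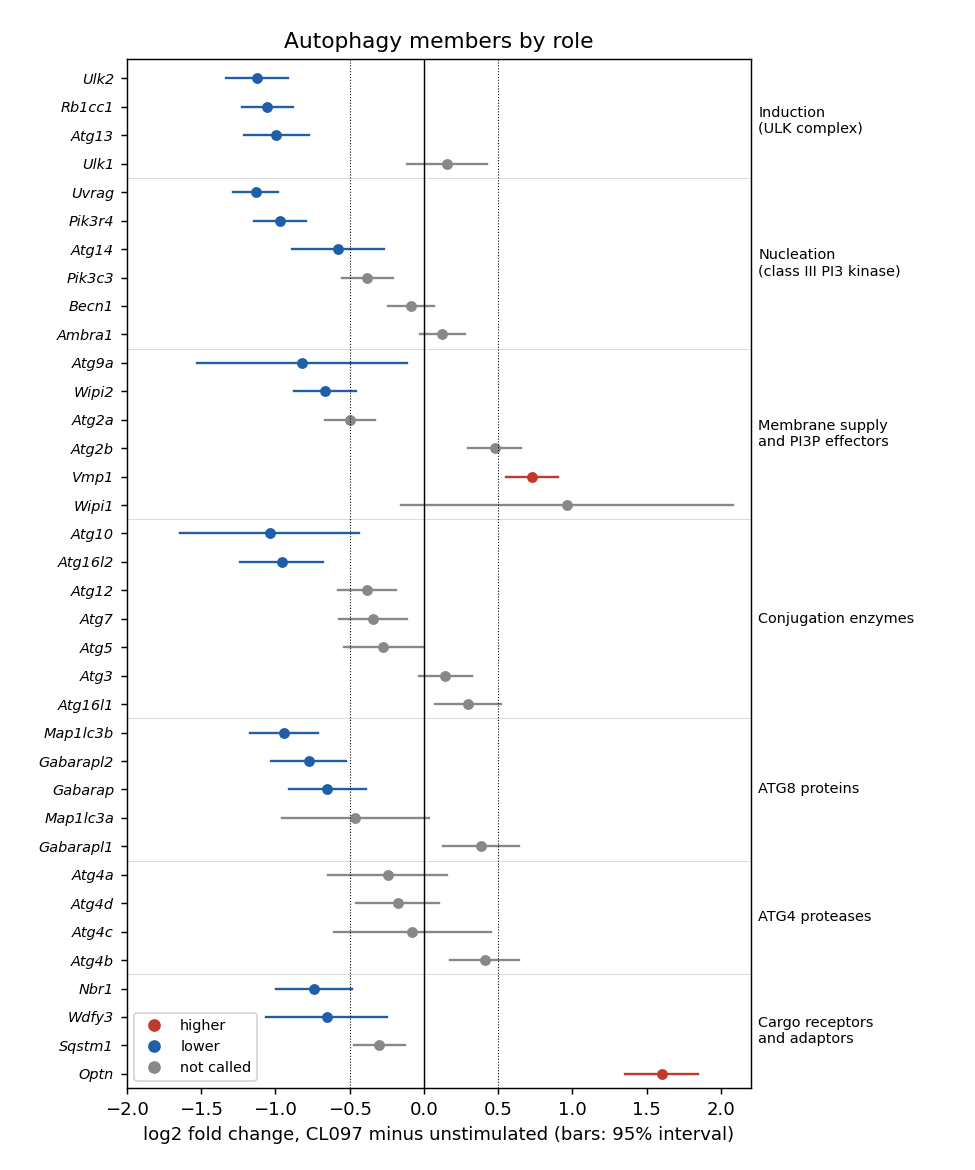
Log2 fold change (CL097 minus unstimulated, horizontal axis) with its 95% interval from limma for the 36 tested members, grouped by role; dotted lines mark the fold threshold of 0.5, and colours mark genes called higher, lower or not called. Most points lie left of 0, Optn (1.60) and Vmp1 (0.73) are the 2 called higher, and Atg9a and Wipi1 have the widest intervals.

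Of the 4 members of the induction complex 3 were called lower (75%, against 25.8% of all tested genes). ULK1 and ULK2 are related kinases that phosphorylate the rest of the machinery, and ATG13 and FIP200 (Rb1cc1) are the scaffold that holds them. Ulk2 (chromosome 11, 61775649 to 61855073, GRCm38) had 92.0, 80.7 and 86.0 CPM in the unstimulated libraries 1 to 3 and 42.0, 41.5 and 35.6 CPM in the CL097 libraries. Every CL097 library was below every unstimulated library, and Ulk2 was 2.18-fold lower (log2 -1.12, SE 0.09, adjusted p = 3.11e-05). Rb1cc1 (chromosome 1, 6206197 to 6276648) had 115, 143 and 144 CPM without and 60.1, 67.4 and 65.0 CPM with CL097, again without overlap (log2 -1.05, SE 0.07, adjusted p = 1.79e-05). Atg13 went from 72.4 ± 3.64 to 36.4 ± 3.53 CPM (SD, n = 3), 1.99-fold lower (log2 -0.99, SE 0.09).

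Ulk1 was not called. It had 51.7, 66.7 and 51.4 CPM without and 49.7, 68.5 and 72.0 CPM with CL097, so the groups overlapped, and its log2 fold change was 0.16 (95% interval -0.12 to 0.43, adjusted p = 0.267). Without number 3 its estimate was -0.01. The gene of a further subunit, Atg101, which steadies ATG13, is in the tables under its older symbol 9430023L20Rik and so outside the rule. It went from 25.0 ± 1.42 to 18.0 ± 1.14 CPM, with a log2 fold change of -0.48 (adjusted p = 0.00455), just short of the fold threshold.

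The class III phosphatidylinositol 3-kinase complex makes PI3P, the lipid that marks the growing membrane. Its catalytic subunit is Vps34 (Pik3c3), its pseudokinase scaffold is Vps15 (Pik3r4), and Beclin 1 joins both to either ATG14, which directs the complex to autophagosome formation, or UVRAG, which directs it to endosomes and lysosomes. Uvrag had the lowest log2 fold change of all members. It had 217, 189 and 191 CPM without and 94.0, 88.4 and 89.3 CPM with CL097, 2.19-fold lower (log2 -1.13, SE 0.06, adjusted p = 7.18e-06). The groups were far apart, with 189 CPM in the lowest unstimulated and 94.0 CPM in the highest CL097 library. Pik3r4 was nearly as tight, with 89.1, 85.8 and 88.3 CPM against 47.4, 42.9 and 44.1 CPM (log2 -0.97, SE 0.07, adjusted p = 2.69e-05). Atg14 was called lower, from 16.4 ± 1.41 to 11.0 ± 0.695 CPM (log2 -0.58, SE 0.13, adjusted p = 0.00635), and without number 1 its log2 fold change was -0.47, under the fold threshold.

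Pik3c3, Becn1 and Ambra1 were not called. Pik3c3 had a log2 fold change of -0.38 (95% interval -0.55 to -0.21, adjusted p = 0.00278), lower in all 3 pairs but short of the fold threshold. Becn1 had 113, 118 and 112 CPM without and 102, 113 and 108 CPM with CL097, overlapping groups with a log2 fold change of -0.09 (95% interval -0.24 to 0.07). Ambra1, which binds Beclin 1 and links it to the ULK complex, had 0.12 (95% interval -0.03 to 0.28). Becn1 shares 3104 of its 7065 exonic bases with Cntd1 on the opposite strand. The intervals of Becn1 and Ambra1 hold no change as large as the fold threshold in either direction.

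**Figure D2:**
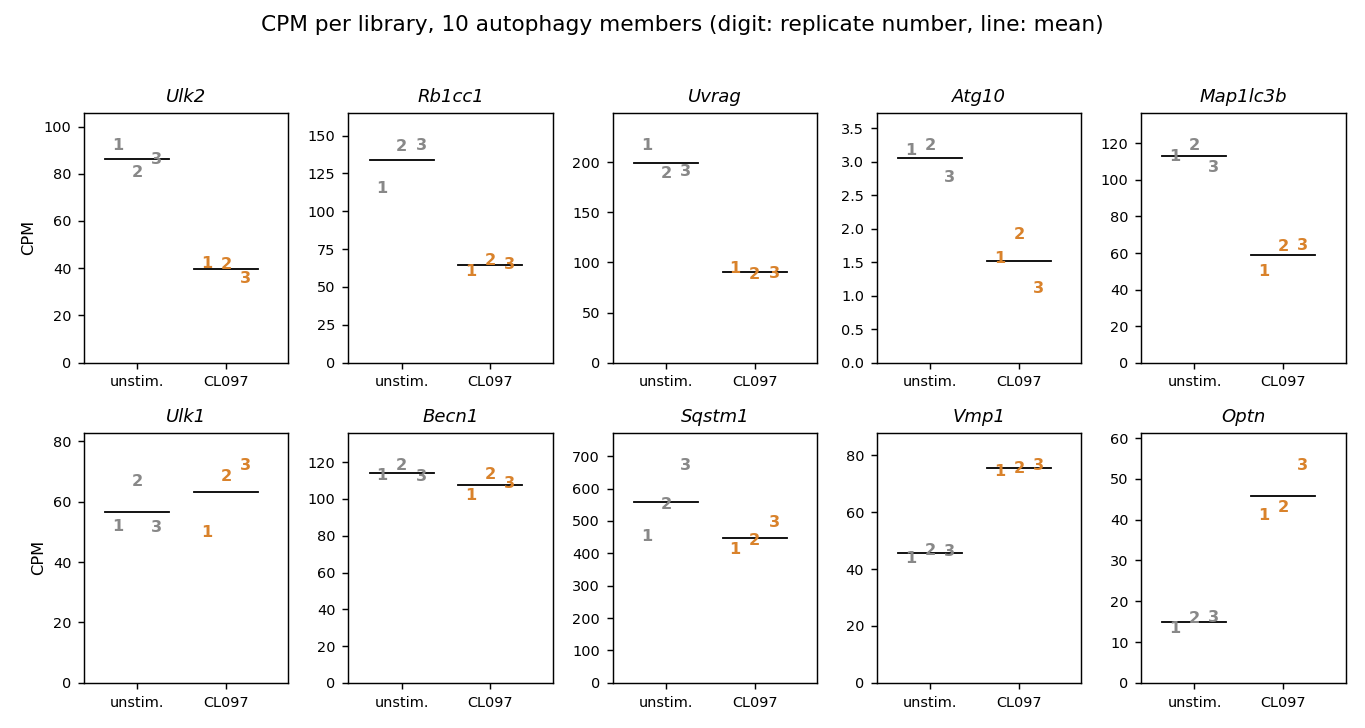
CPM (vertical axes, each from 0) of 10 members in each library; digits are replicate numbers and lines are group means. In the upper row (Ulk2, Rb1cc1, Uvrag, Atg10, Map1lc3b) every CL097 library lies below every unstimulated library, in the lower row Ulk1, Becn1 and Sqstm1 overlap, and Vmp1 and Optn are higher in every CL097 library.

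The members that supply and shape the membrane went both ways, with 1 of 6 tested called higher and 2 lower (16.7% and 33.3%). Of all tested genes 25.9% were called higher and 25.8% lower. VMP1 is a membrane protein of the endoplasmic reticulum that moves lipids between leaflets and is needed for autophagosomes to form. Vmp1 (chromosome 11, 86583865 to 86683836) had 43.7, 46.7 and 46.2 CPM without and 74.4, 75.3 and 76.4 CPM with CL097, 1.66-fold higher (log2 0.73, SE 0.07, adjusted p = 0.000116). The groups did not overlap and the libraries within each lay close together. The microRNA gene Mir21a lies on the same strand and shares 92 annotated exonic bases with it, so reads of its precursor could be counted as Vmp1. Wipi2, which reads PI3P and recruits the conjugation machinery, was called lower, from 116 ± 6.77 to 73.5 ± 9.87 CPM (log2 -0.67, SE 0.09, adjusted p = 0.000455). ATG2A and ATG2B are lipid transfer proteins that feed the membrane, and their genes had opposite signs. Atg2a had a log2 fold change of -0.50 (SE 0.07), lower in all 3 pairs and just under the threshold, and Atg2b had 0.48 (SE 0.07), higher in all 3 pairs and also under it.

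Atg9a and Wipi1 depended on the number. ATG9A is the lipid scramblase carried on the vesicles that seed the autophagosome. Atg9a had 39.6, 39.9 and 31.2 CPM without and 11.3, 24.9 and 31.7 CPM with CL097, so the fall was large in number 1, smaller in number 2 and missing in number 3. It was called lower (log2 -0.82, SE 0.30, adjusted p = 0.0438), but its log2 fold change was -0.33 without number 1 (adjusted p = 0.0522), and the adjusted p was 0.0653 without number 2 and 0.0698 without the replicate block. Atg9a was also not called in limma with no filter on low values (adjusted p = 0.308), a robust variance model (0.196) or no variance trend (0.145). Of its 5762 annotated exonic bases, 1832 are shared with Gm29253 on the same strand, so these reads are uncertain. Wipi1, a PI3P reader related to WIPI2, had 1.93, 2.52 and 2.39 CPM without and 1.25, 8.01 and 8.58 CPM with CL097. It was higher in numbers 2 and 3 and lower in number 1, and was not called (log2 0.96, SE 0.47, adjusted p = 0.11), while without number 1 it was called higher at log2 1.76 (adjusted p = 2.43e-06). In numbers 2 and 3 the erythroid markers summed to at least 4184 CPM, and in number 1 to 206 and 214 CPM. The part of these cells in the Wipi1 and Atg9a values was not tested.

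The conjugation enzymes attach ATG12 to ATG5 and ATG8 proteins to lipid: ATG7 is the shared E1-like enzyme, ATG10 and ATG3 are the E2-like enzymes, and ATG16L1 or its relative ATG16L2 joins ATG12-ATG5. Of 7 tested genes 2 were called lower and 0 higher (28.6% lower, near the 25.8% of all tested genes). At an unadjusted p under 0.05 in limma, 5 were lower and 1 higher. Of all 11844 tested genes 4108 were lower and 4175 higher at that level. Atg10 was the most changed, at a low level. It had 3.16, 3.24 and 2.77 CPM without and 1.55, 1.92 and 1.10 CPM with CL097 (log2 -1.04, SE 0.26, adjusted p = 0.00905), and the adjusted p was 0.0523 without number 3. Atg16l2 had 26.3, 33.0 and 26.6 CPM against 15.8, 15.6 and 12.8 CPM, 1.94-fold lower without overlap (log2 -0.96, SE 0.12, adjusted p = 0.000308). The other 5 were not called. Atg12 (log2 -0.38, adjusted p = 0.00511) and Atg7 (log2 -0.34, adjusted p = 0.0161) were lower in all 3 pairs and short of the fold threshold. Atg5 had a log2 fold change of -0.27 (95% interval -0.54 to -0.01), Atg3 had 0.14 (95% interval -0.03 to 0.32) and Atg16l1 had 0.30 (95% interval 0.07 to 0.52).

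Of the 5 ATG8 genes, 3 were called lower and 0 higher (60% lower, against 25.8% of all tested genes). At an unadjusted p under 0.05 in limma, 3 were lower and 1 higher, against 4108 lower and 4175 higher of all 11844 tested genes. Map1lc3b encodes LC3B, the protein most used to count autophagosomes. It had 113, 119 and 107 CPM without and 49.9, 63.6 and 64.0 CPM with CL097, 1.92-fold lower without overlap (log2 -0.94, SE 0.10, adjusted p = 0.000120). Gabarapl2 (GATE-16) went from 32.5 ± 4.29 to 18.9 ± 0.926 CPM (log2 -0.78, SE 0.11) and Gabarap from 262 ± 23.8 to 168 ± 19.8 CPM (log2 -0.65, SE 0.11). Map1lc3a stayed low and was not called (log2 -0.46, 95% interval -0.96 to 0.03). Gabarapl1, which shares 570 of its 2013 exonic bases with 1700101I11Rik on the opposite strand, was the only ATG8 gene with a positive log2 fold change. It had 14.9, 15.8 and 20.3 CPM without and 18.6, 19.9 and 28.7 CPM with CL097, higher in all 3 pairs but with overlapping groups (log2 0.39, SE 0.11, adjusted p = 0.0161), under the fold threshold.

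Levels of different genes can be compared only per length, here as CPM per kb of annotated exon (all GENCODE M21 exons of a gene merged). On that scale Gabarap made up 77.1% of the summed level of the 5 ATG8 genes without and 74.9% with CL097. Gabarapl1 went from 4.62% to 9.09% and Map1lc3b from 8.15% to 6.48%. The sum itself went from 184 ± 10.7 to 121 ± 14.9 CPM per kb. Merged exons can include rarely used ones, so these shares depend on the annotation.

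The ATG4 proteases trim ATG8 proteins before conjugation and release them from lipid afterwards. None of the 4 genes was called, against 51.7% of all tested genes in either direction. At an unadjusted p under 0.05 in limma, 1 was higher and 0 lower, against 4175 higher and 4108 lower of all 11844 tested genes. Atg4b, the member with the broadest activity, had 58.6, 62.3 and 52.5 CPM without and 68.4, 79.8 and 82.3 CPM with CL097. The groups did not overlap, and the log2 fold change of 0.41 (SE 0.10, adjusted p = 0.00792) was short of the threshold. Atg4a (log2 -0.24, 95% interval -0.64 to 0.16), Atg4d (-0.18, -0.46 to 0.10) and Atg4c (-0.08, -0.61 to 0.45) had intervals that included 0, and Atg4c had 0.20 without number 3.

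Among the cargo receptors Optn stood out. Optineurin binds ubiquitin chains and LC3 and carries damaged mitochondria and bacteria into autophagosomes, and it also binds ubiquitin chains of the NF-kB pathway. Optn (chromosome 2, 5020642 to 5064051) had 13.3, 15.8 and 16.0 CPM without and 41.0, 42.9 and 53.3 CPM with CL097, so every stimulated library was far above the highest unstimulated library. It was 3.03-fold higher (log2 1.60, SE 0.10, adjusted p = 1.25e-05), the largest change of any member. Nbr1, a receptor that works beside p62, was called lower, with 143, 167 and 147 CPM against 69.7, 101 and 106 CPM (log2 -0.74, SE 0.11, adjusted p = 0.000726). Sqstm1, which encodes p62, had 451, 549.9 and 671 CPM without and 411, 440.2 and 494 CPM with CL097. The groups overlapped because the numbers differed, yet CL097 was lower within each number, and the log2 fold change of -0.30 (SE 0.07, adjusted p = 0.00818) was short of the fold threshold.

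Wdfy3 encodes ALFY, a large adaptor for protein aggregates. It had 3.81, 13.3 and 19.0 CPM without and 3.04, 6.95 and 11.7 CPM with CL097, and it was called lower (log2 -0.66, SE 0.17, adjusted p = 0.0125). The levels differed more between numbers than between conditions. The adjusted p was 0.120 without number 2, 0.0751 without number 3 and 0.420 without the replicate block. The summed monocyte and macrophage markers were 166, 423 and 705 CPM without and 117, 243 and 423 CPM with CL097, and the order of the 6 libraries by this sum was that by Wdfy3, with unstimulated number 2 and CL097 number 3 level in the sum. None of these markers was at 0, although cells labelled for CD11b, CD11c or Gr-1, which mark myeloid cells, had been depleted before the culture. The part of such cells in the Wdfy3 values was not tested.

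**Figure D3:**
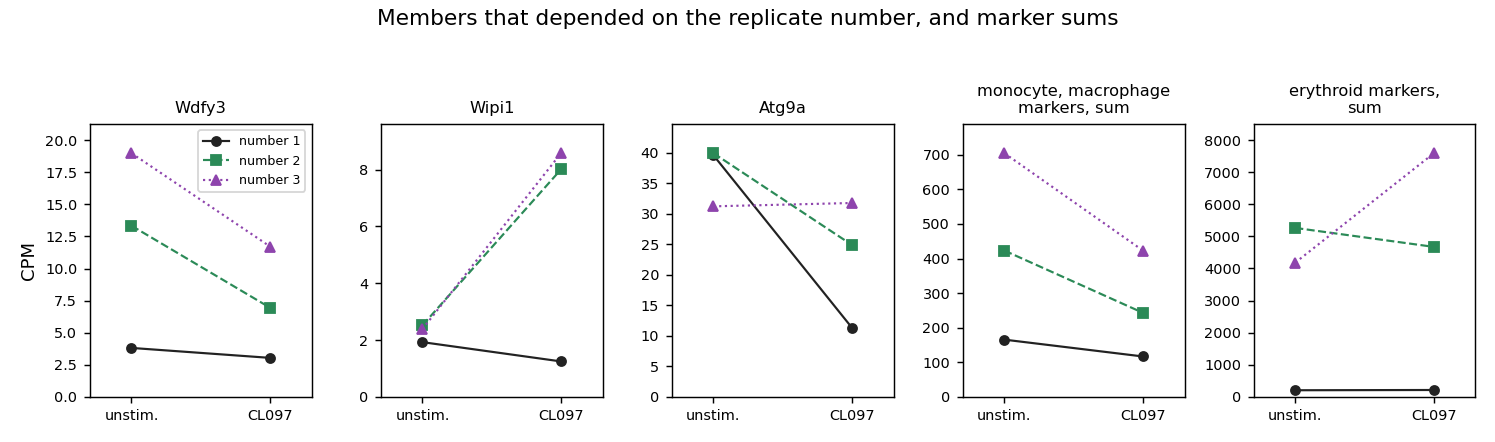
CPM (vertical axes, each from 0) of Wdfy3, Wipi1 and Atg9a and the summed CPM of 12 monocyte and macrophage and 10 erythroid markers, with a line joining the unstimulated and the CL097 library of each number. Wdfy3 and the monocyte and macrophage sum are lowest in number 1 and highest in number 3 in each condition, Wipi1 is higher after CL097 in numbers 2 and 3, and Atg9a falls from 39.6 to 11.3 CPM in number 1 and goes from 31.2 to 31.7 CPM in number 3.

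Some related members had different log2 fold changes, while others, such as Map1lc3b, Gabarapl2 and Gabarap, were called in the same direction. A ratio of 2 genes within a library is unchanged by any scaling of the whole library, though not by the quantile step. Such ratios were read for 8 pairs of one family, chosen after the values were seen. For Ulk1 over Ulk2 the log2 ratio was -0.83, -0.28 and -0.74 without and 0.24, 0.72 and 1.02 with CL097. The groups did not overlap. The ratio of Atg16l1 over Atg16l2 went from 0.27 ± 0.08 to 1.53 ± 0.12 (log2, SD, n = 3) and that of Atg2b over Atg2a from -0.15 ± 0.10 to 0.83 ± 0.05. Gabarapl1 went from -0.94 ± 0.08 to 0.22 ± 0.30 against Gabarapl2 and from -3.96 ± 0.37 to -2.92 ± 0.21 against Gabarap.

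The ratio of Map1lc3a over Map1lc3b went from -4.34 ± 0.11 to -3.87 ± 0.13 and that of Atg4b over Atg4a from 2.77 ± 0.25 to 3.43 ± 0.33. In these 7 pairs the groups did not overlap, and in the eighth, Wipi1 over Wipi2, they did, with number 1 at -5.65 with CL097. The gene with the higher log2 fold change was put on top in each pair, so the direction is fixed by the choice and the ratios are given as a description, with no test.

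**Figure D4:**
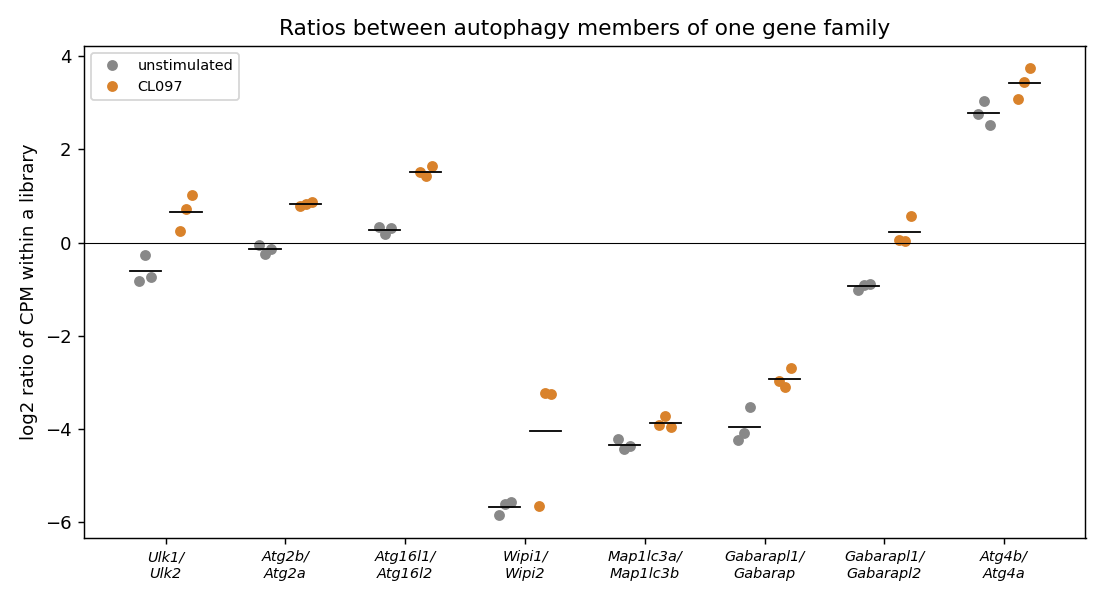
Log2 ratio of CPM of 2 members of one family within each library (vertical axis; points are libraries, lines are group means) for 8 pairs. All CL097 libraries lie above all unstimulated libraries in 7 pairs, and for Wipi1 over Wipi2 1 CL097 library stays at the unstimulated level.

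The sequences before the transcription starts are shown for the members with the largest rise and the largest fall, and for those with a match to a searched motif that lies clear of annotated exons. RefSeq (GRCm38.p6) start-site windows were found for 30 of the 37 members, and the 250 bases before each start were searched on both strands. The motifs were the E-box CACGTG, the core of the sites bound by the autophagy and lysosome regulator TFEB and also by MYC, the AP-1 site TGANTCA, the FOXO site GTAAACA and the NF-kB consensus. The E-box was in 3 of 35 member windows (8.57%) and in 6.02% of all 32851 windows, and the NF-kB consensus was in 3 (8.57%) against 7.25%. AP-1 and FOXO sites were in none of the member windows and in 6.75% and 3.17% of all windows. The E-box windows belonged to Atg3, Atg5 and Atg7, all conjugation enzymes and none of them called, and those with the NF-kB consensus to Vmp1, Atg16l2 and Sqstm1. The Atg7 window (chr6:114670846-114671095) lies inside the annotated gene, which begins at 114643097, so it precedes an internal start. Capitals mark the matches in the stretches of Atg3 (chr16:45158718-45158780, plus strand), Atg5 (chr10:44268308-44268338, plus strand), Atg7 (chr6:114670947-114670986, plus strand) and Vmp1 (chr11:86683909-86683952, minus strand), and the 250 bases of Optn (chr2:5064118-5064367, minus strand) and Uvrag (chr7:99141145-99141394, minus strand) hold no match.
Atg3: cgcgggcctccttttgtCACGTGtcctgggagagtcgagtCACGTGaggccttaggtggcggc
Atg5: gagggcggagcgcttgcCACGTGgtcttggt
Atg7: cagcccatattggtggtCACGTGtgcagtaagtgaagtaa
Vmp1: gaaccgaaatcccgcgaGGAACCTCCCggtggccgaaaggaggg
Optn: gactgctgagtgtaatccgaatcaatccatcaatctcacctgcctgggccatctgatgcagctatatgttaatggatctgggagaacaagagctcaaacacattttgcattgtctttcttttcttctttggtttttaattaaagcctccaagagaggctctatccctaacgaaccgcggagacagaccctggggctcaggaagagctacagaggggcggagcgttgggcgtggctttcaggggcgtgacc
Uvrag: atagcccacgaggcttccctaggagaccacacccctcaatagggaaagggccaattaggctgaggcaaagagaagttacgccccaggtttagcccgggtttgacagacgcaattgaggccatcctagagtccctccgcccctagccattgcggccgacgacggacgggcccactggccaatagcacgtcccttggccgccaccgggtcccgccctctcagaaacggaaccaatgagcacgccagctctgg

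Genes that control the pathway were read from 4 further lists. Of 33 tested genes of mTORC1, AMPK and TFEB control, 10 were called lower and 4 higher (30.3% and 12.1%, median log2 fold change -0.22). The shares of all tested genes were 25.8% lower and 25.9% higher, so the share called lower was near the background. Of the 4 higher, Prkaa2 passed the filter only through the CL097 libraries, so its call is tied to the filter. Prkaa2 had 0.0305, 0.128 and 0.0444 CPM without and 3.90, 1.67 and 1.90 CPM with CL097. With the stricter filter on low values, 9 genes of this list were called lower and 3 higher. The mTOR kinase restrains autophagy when nutrients are plentiful, and Mtor was 2.06-fold higher, from 87.7 ± 4.97 to 181 ± 0.69 CPM (log2 1.05, SE 0.07, adjusted p = 1.15e-05). Prkab2, a regulatory subunit of AMPK, was 2.27-fold higher, while the regulatory subunits Prkag1 (log2 -0.95) and Prkag2 (log2 -1.14) were called lower. Prkab1 (log2 0.33) and the catalytic subunit Prkaa1 (log2 -0.03) were not called. Sesn2, a stress-induced inhibitor of mTORC1, was 1.83-fold higher, though it was not called with no filter on low values (adjusted p = 0.104). Tfeb, the transcription factor of lysosome and autophagy genes, was 2.68-fold lower, from 66.7 ± 1.43 to 24.9 ± 1.05 CPM (log2 -1.42, SE 0.08, adjusted p = 7.75e-06). The mTORC1 inhibitors Sesn1, from 144 ± 7.21 to 28.0 ± 2.57 CPM, and Ddit4, from 34.6 ± 12.0 to 7.59 ± 1.42 CPM, were 5.16-fold and 4.45-fold lower.

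Of 20 nucleation and PI3P regulators 7 were lower and 2 higher (35% and 10%, median -0.44). The shares of all tested genes were 25.8% and 25.9%. Trp53inp1, whose product binds ATG8 proteins, went from 383 ± 66.1 to 92.8 ± 31.4 CPM and Tbc1d14, a Rab regulator of ATG9 vesicles, from 115 ± 6.55 to 29.0 ± 4.39 CPM. Rubcn, in the tables as 1700021K19Rik, encodes Rubicon, a partner of UVRAG that slows autophagosome maturation and is needed for LC3-associated phagocytosis. It was 3.00-fold lower (log2 -1.59, SE 0.07, adjusted p = 2.94e-06). Bcl2, whose product holds Beclin 1 inactive beside its role in survival, rose 2.57-fold, and Tmem41b, which works with VMP1, was 1.60-fold higher, though not called with no filter on low values (adjusted p = 0.0980).

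Of 21 genes of autophagosome fusion 8 were lower and 0 higher (38.1%, median -0.36). Of all tested genes 25.8% were called lower and 25.9% higher. At an unadjusted p under 0.05 in limma, 14 fusion genes were lower and 0 higher, against 4108 lower and 4175 higher of all 11844 tested genes. Plekhm3 was 5.83-fold lower, from 142 ± 8.85 to 24.4 ± 3.31 CPM. The fusion protein gene Vamp8 and the tethering adaptor gene Plekhm1 were 2.47-fold and 2.44-fold lower, and Vamp8 was not called with no filter on low values (adjusted p = 0.0698). Of 24 other cargo receptor genes 11 were lower and 2 higher (45.8% and 8.33%, median -0.34). Bnip3, a receptor for mitochondria, was 6.38-fold lower at 4.95 ± 0.935 CPM after CL097. Fam134b (Retreg1), a receptor for the endoplasmic reticulum, was 4.27-fold lower and Pink1, the kinase that marks damaged mitochondria, 3.63-fold lower. Nufip1, linked to ribosome turnover, was 2.55-fold higher and Phb2, a prohibitin of the inner mitochondrial membrane, 1.83-fold higher.

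**Figure D5:**
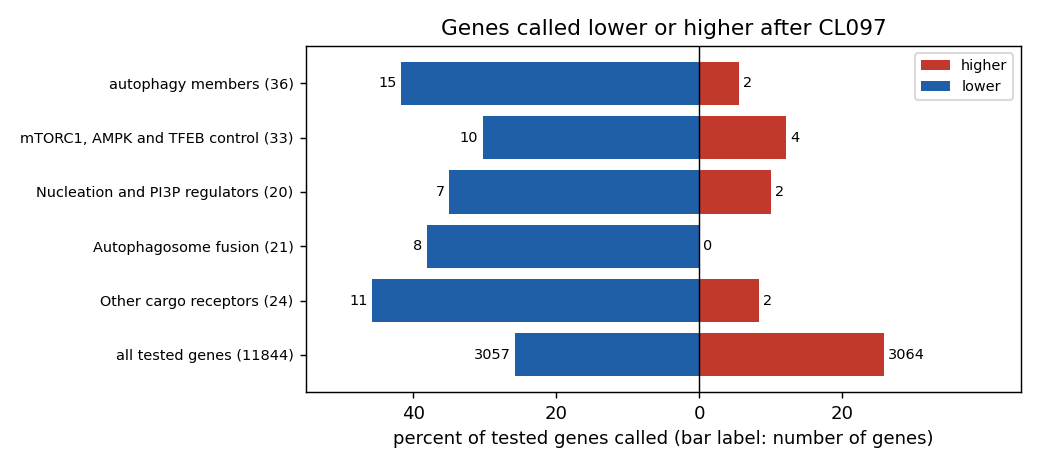
Percent of tested genes called lower (left) and higher (right) after CL097 for the autophagy members, 4 lists of further pathway genes and all tested genes, with the number of tested genes in brackets and the number called at each bar. In every list more genes were called lower than higher, while all tested genes split almost evenly, 3057 lower and 3064 higher.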

How the data were processed

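Splenic B cells of TLR9-/- MRL/lpr mice were profiled in 3 unstimulated and 3 CL097 libraries. Per the submitters' processing notes, the tools included STAR 2.6.1a and, with Subread 2.0.1, featureCounts on mm10, with Trim Galore 0.6.5, FastQC 0.11.7 and limma. The authors deposited log2 CPM after voom with quantile normalization, so changes in total RNA were not measured. Which annotation was counted, and whether by strand, is not given in the sources used here. Of the members, 15 share exonic bases with another gene, 13 of them on the opposite strand and 2 on the same strand. The opposite-strand overlaps include 3104 bases in Becn1, 1589 in Uvrag, 1405 in Atg4d, 580 in Sqstm1 and 570 in Gabarapl1. They also include 558 bases in Rb1cc1, 392 in Wdfy3 and 239 in Atg14. The same-strand overlaps are 1832 bases in Atg9a and 92 in Vmp1. Reads from all these shared bases are uncertain.

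The deposited log2 values were fitted in limma 3.58.1 (R 4.3.3) with condition and replicate number as terms and a mean-variance trend, two-sided, without a pseudocount. The fit was tested on simulated data. The numbers were taken to pair libraries because deviations from the group means correlated within numbers (0.568, 0.326 and 0.458 across genes, limit 0.1), although unstimulated 2 with CL097 3 (0.209) and unstimulated 3 with CL097 2 (0.172) also passed that limit; no source says that a number marks a mouse, so p-values measure the spread between these libraries. Libraries of one number share between 2655 and 3108 identical values, against 347 to 404 otherwise, as after an additive correction by number. The paired fit removes such a correction, but it alters levels between numbers and the correlations within them. These correlations are therefore no independent support for the pairing. Members and lists were chosen with earlier results of these data known. Every member is named, with all 6 values where it was called with a log2 fold change of 1 or more in size or was the most changed of its role, and for others as needed. Of further genes, up to 3 called in each direction per list with a mean of at least 5 CPM are named, and other AMPK subunits beside Prkab2. Older symbols were matched through RefSeq synonyms. Coordinates and exons are from GENCODE M21 (GRCm38), in which all 37 members had 1 match. A marker gene of the lists is not reported here, and its values are left out of the summed levels.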

Additional observations from a re-analysis of the deposited data

How the results depend on the processing

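The fit was repeated under 11 alternatives: no replicate block, each number left out of both conditions, no or a stricter filter on low values, 1 CPM added before log2, no variance trend, a robust variance model, median centring and cyclic loess. Lower members numbered 13 without the replicate block, against 15 in the paired fit, with 2 higher in both. They numbered 13 to 14 with a number left out and 10 with no filter, where 17935 genes were tested. Over all tested genes the lower calls also varied, with 3057 in the paired fit, 2799 without the block and 2441 with no filter. With a number left out these ran from 2749 to 3157. Higher members numbered 2 to 5 with a number left out, 5 of them without number 1 (Atg2b, Atg4b and Wipi1 added). Without the block Atg9a and Wdfy3 lost their calls. The members' median stayed between -0.41 and -0.36 with a number left out. With no filter 1 of the nucleation and PI3P regulators was higher, against 2, 3 of the mTORC1, AMPK and TFEB control genes, against 4, and Sesn2, Tmem41b and Vamp8 lost their calls. Over all alternatives 11 of the 17 called members kept their calls, and Atg9a, Wdfy3, Atg10, Atg14, Gabarap and Nbr1 did not in at least 1; for Gabarap and Nbr1 this was only with no filter (adjusted p = 0.0751 and 0.0540). Atg2a was called lower with cyclic loess (log2 -0.52) and without number 1 or 3. With a number left out the log2 fold change of Ulk1 ran from -0.0095 to 0.2615 and that of Atg4c from -0.2955 to 0.20, and both signs turned without number 3. With depth unknown, no floor can be given for the members at a low level (Atg10, Wipi1, Map1lc3a and Atg4c).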
